A study of Mus musculus with 9 samples.

Results

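*B2m*, *H2-K1* and *Lgals3bp* were followed in RNA-seq of mouse hemibrains. *B2m* encodes beta-2 microglobulin, the light chain of major histocompatibility complex (MHC) class I. *H2-K1* encodes a classical MHC class I heavy chain of the mouse, and *Lgals3bp* encodes the secreted galectin-3 binding protein. They are 3 of the 689 genes in the expression table, and they were taken from it by their gene symbols. Every row of that table, these 3 included, had been selected on the values of the same libraries with a model of age and microglial state. Before that model the authors had kept only genes above a minimum RPKM, so a gene low in the young could enter through the aged groups. *Lgals3bp* lay below that minimum in all young controls, and *H2-K1* in some of them. Differences between the groups are therefore a description for these 3 genes, and no p-value is given for them. The counts of these genes that passed a threshold are given beside the share of the whole table, as a description too, and are no evidence for a difference.

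The libraries came from 9 male C57BL/6J mice, with 3 in each group and 1 frozen hemibrain per mouse, taken after behavioural testing. Young controls were 5 months old by the sample labels and had eaten control diet for 6 weeks, and aged controls were 24 months old and had eaten the same diet for 6 weeks. Aged-repopulated mice were 24 months old and had received PLX5622 in the diet for 2 weeks, followed by 4 weeks of control diet. PLX5622 blocks the receptor CSF1R, whose signal keeps microglia alive, and microglia return to the brain once the drug is withdrawn. The labels name no transgene or deletion. JAX supplied the young mice and NIA the aged ones, so age and supplier cannot be told apart. Expression is given as RPKM, reads of a gene scaled to its length and to the size of the library. Because only RPKM was used, read depth is unknown, and the precision of each value rests on the spread among 3 libraries. Summed over the 689 genes, RPKM lay between 22242 and 22330 in the young, 23629 and 24853 in the aged, and 22861 and 23632 in the aged-repopulated libraries.

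MHC class I molecules display short peptides from inside the cell to CD8 T cells, and a heavy chain needs beta-2 microglobulin to fold and to reach the cell surface. Both chains are expressed at low levels in most brain cells, more strongly in microglia and endothelial cells, and both are induced by type I and type II interferons. *Lgals3bp* is also an interferon-induced gene, and its product binds galectins and matrix proteins. Interferon signalling runs from the receptors through the JAK kinases to STAT and IRF transcription factors, which bind short elements in the promoters of their target genes.

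The region upstream of each gene was read for such elements, because promoter letters do not depend on the expression values. The genes were grouped as MHC class I and interferon-linked, so the presence of such elements is not independent of that choice. RefSeq sequence of GRCm38.p6 was used, 250 bases before the annotated start, and all 3 genes had an entry. The interferon-stimulated response element core was searched as GAAANNGAAA and the gamma-activated sequence as TTCNNNGAA, on both strands. A shorter core of the interferon regulatory factors, AANNGAAA, was added after the promoters had been read, and it lies inside the first motif wherever that motif occurs. The 2 sequences below are the whole windows of *B2m* (chr2:122147437-122147686, plus strand) and *H2-K1* (chr17:34000348-34000597, minus strand), each written 5′ to 3′ on the strand of the gene, with the matches in capitals.
*B2m*: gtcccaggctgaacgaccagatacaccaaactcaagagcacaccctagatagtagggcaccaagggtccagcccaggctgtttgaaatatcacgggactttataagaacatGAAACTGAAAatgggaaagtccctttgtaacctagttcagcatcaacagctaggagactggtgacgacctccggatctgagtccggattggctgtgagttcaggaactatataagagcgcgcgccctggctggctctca
*H2-K1*: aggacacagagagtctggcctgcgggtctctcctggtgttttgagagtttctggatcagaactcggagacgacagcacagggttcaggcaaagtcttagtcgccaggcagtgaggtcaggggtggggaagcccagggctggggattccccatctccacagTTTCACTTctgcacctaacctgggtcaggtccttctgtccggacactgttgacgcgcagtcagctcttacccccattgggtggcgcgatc

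The *B2m* window held the longer element, at positions -139 to -130 relative to the start. Among 32851 promoter windows of the same length, 978 (2.98%) held it. *H2-K1*, *Lgals3bp* and the second classical heavy chain in the table, *H2-D1*, held only the shorter core, which 21.3% of all windows hold. In *H2-K1* and *H2-D1* it was on the opposite strand, so the printed letters are its complement read backwards. None of the 3 genes had a match to the gamma-activated sequence, which 7.02% of windows hold, and this says only that those letters are absent from these windows. The 30 bases around each match are set side by side to show how alike the heavy chain promoters are, again with the match in capitals. For *Lgals3bp* the stretch lies just before the RefSeq start, and GENCODE places the start 133 bases further upstream. For *H2-D1* the GENCODE start is 364 bases further upstream.
*B2m* (chr2:122147538-122147567, plus strand): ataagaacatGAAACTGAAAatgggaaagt
*H2-K1* (chr17:34000418-34000447, minus strand): atctccacagTTTCACTTctgcacctaacc
*H2-D1* (chr17:35262934-35262963, plus strand): atctcctcagTTTCACTTctgcacctaacc
*Lgals3bp* (chr11:118401960-118401989, minus strand): tcatgtgttttctgaaAATCGAAActaggt

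*H2-K1* and *H2-D1* shared an identical run of 47 bases within their windows. The longest run shared by any pair among *B2m*, *H2-K1* and *Lgals3bp* was 8 to 10 bases. A match is a description of letters and not of a bound site.

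The genes lie on 3 chromosomes. In GENCODE M21 on GRCm38, *B2m* spans chr2:122147686-122153083 on the plus strand, with 4 exons in a transcript of 860 bases. *H2-K1* lies in the MHC region, at chr17:33996017-34000347 on the minus strand, with 8 exons and 1619 bases of transcript. *Lgals3bp* spans chr11:118392751-118402092 on the minus strand, with 6 exons and 2330 bases. Heavy chain genes resemble each other closely, and the way reads shared between genes were counted is not given in the sources used here. Of the 1570 stretches of 50 bases in *H2-K1*, 138 (8.79%) occur in the transcripts of 24 other genes, 109 of them in *H2-D1*. The corresponding number was 0 of 811 for *B2m* and 0 of 2281 for *Lgals3bp*. How far this affects the RPKM of *H2-K1* was not tested.

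*B2m*, the light chain, was the most abundant of the 3 genes and ranked 36th of 689 by mean RPKM over all libraries. The young controls had 64.9, 69.7 and 73.7 RPKM for replicates 1, 2 and 3. The aged controls had 140, 115 and 106 RPKM, and the aged-repopulated libraries had 144, 102 and 99.7 RPKM. Every aged library, repopulated or not, lay above every young library, while the aged-control and aged-repopulated libraries overlapped. The group means were 69.4 ± 4.42 RPKM for the young, 120 ± 17.9 RPKM for the aged and 115 ± 25.0 RPKM for the aged-repopulated group (SD, n = 3).

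*H2-K1*, the heavy chain, ranked 410th. Its young control values were 11.0, 9.77 and 9.999 RPKM for replicates 1 to 3. The aged controls had 25.1, 19.4 and 16.9 RPKM, and the aged-repopulated libraries 26.1, 17.3 and 16.1 RPKM. As for *B2m*, the young group stood apart from both aged groups, and the aged groups overlapped. The group means were 10.3 ± 0.673, 20.4 ± 4.19 and 19.8 ± 5.48 RPKM (SD, n = 3) in the order given.

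*Lgals3bp*, the galectin-binding protein, was the least abundant and ranked 646th. The young controls had 6.67, 6.06 and 4.82 RPKM. The aged controls had 15.9, 12.4 and 9.91 RPKM, and the aged-repopulated libraries 18.2, 11.3 and 9.81 RPKM. The lowest aged library was again above the highest young one. The means were 5.85 ± 0.940 RPKM, 12.7 ± 3.04 RPKM and 13.1 ± 4.45 RPKM (SD, n = 3). For each of the 3 genes the young group was the lowest, and the 2 aged groups did not differ from each other beyond their spread.

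**Figure D1:**
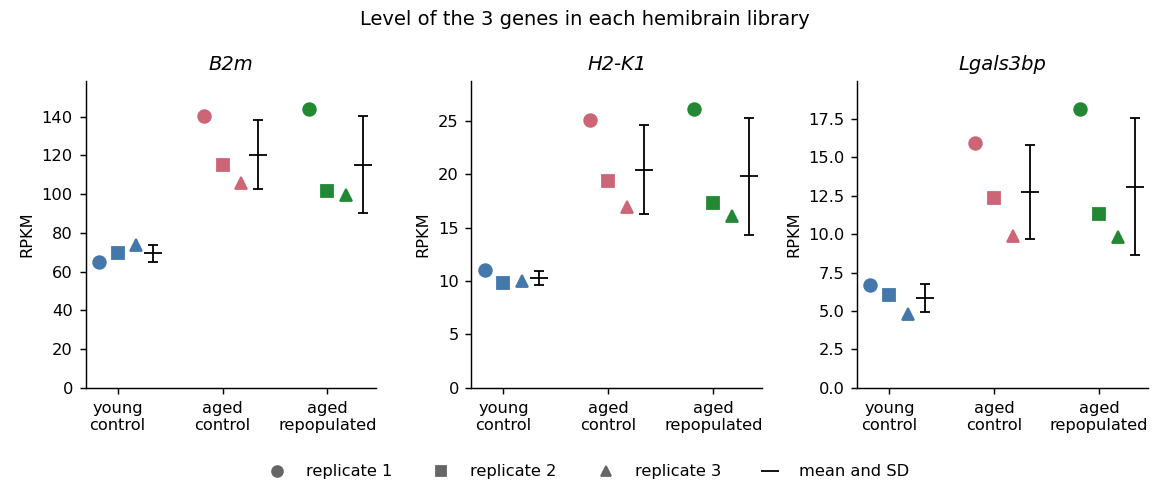
RPKM (y axis, from 0) of *B2m*, *H2-K1* and *Lgals3bp* in each hemibrain library, with young controls, aged controls and aged-repopulated mice along the x axis, the symbol giving the replicate and the bars the mean and SD of 3 libraries. All 6 aged libraries lie above the 3 young ones for each gene, and replicate 1 is the highest library in both aged groups.

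The first comparison was that of aged with young control brains. On the RPKM scale *B2m* was 1.73-fold, *H2-K1* 1.99-fold and *Lgals3bp* 2.18-fold higher in the aged controls. On the scale of log2(RPKM + 1), where all 9 libraries and 689 genes were fitted with limma, the difference was 0.78 (SE 0.14) for *B2m*, 0.91 (SE 0.17) for *H2-K1* and 0.99 (SE 0.22) for *Lgals3bp*. The median difference of all 689 genes was 0.10. By the size of the rise *Lgals3bp* was 3rd, *H2-K1* 5th and *B2m* 11th in the table. All 3 had an adjusted p below the threshold of 0.05, as did 46.3% of the table in the same direction, and in all 3 the groups did not overlap, as in 50.7% of the table. These shares describe a table that was chosen for such differences, so nothing is read from the calls of its members. After each library had been centred on its median, 78 genes passed as higher and 215 as lower, where 319 and 114 had done so before, and the 3 genes differed by 0.67, 0.80 and 0.88 and still passed.

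The second comparison asked whether the genes changed when microglia of aged mice had been removed and had returned. The aged-repopulated mean was 0.957 times the aged-control mean for *B2m*, 0.970 times for *H2-K1* and 1.03 times for *Lgals3bp*. The differences on the log2 scale were −0.07 for *B2m* (95% confidence interval −0.39 to 0.24), −0.06 for *H2-K1* (−0.44 to 0.33) and 0.01 for *Lgals3bp* (−0.47 to 0.50). In limma 0 of the 3 passed the adjusted p and 0 had an unadjusted p under 0.05, which 271 of the 689 genes had. Over the table, 8.71% passed in one direction or the other, 20 genes as higher and 40 as lower (111 and 22 after centring). The 60 genes that passed became 5 when only these groups were fitted and 2 to 141 when 1 library was left out, so this share is itself uncertain and 0 of 3 is close to it. The groups overlapped for all 3 genes, and 37.4% of the table showed no overlap. The intervals are wide and do not show that the levels were equal.

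The third comparison set aged-repopulated against young control brains. *B2m* was 1.66-fold, *H2-K1* 1.93-fold and *Lgals3bp* 2.24-fold higher after repopulation than in the young controls. The log2 differences were 0.70, 0.86 and 1.01 for the 3 genes in that order, with the same standard errors as for age and a table median of 0.04. All 3 genes passed the adjusted p, as did 4.21% of the table in that direction, and in 31.5% of the table the repopulated libraries lay wholly above the young ones. Among all rows 29 genes passed as higher and 5 as lower, and 23 and 38 did so after centring. By the size of the rise *Lgals3bp* was 3rd, *H2-K1* 7th and *B2m* 10th. These calls were not stable. Without any 1 of the 3 young controls 0 of the 3 genes passed, with log2 differences of 0.65 to 1.09, and 0 passed without variance moderation, 1 with quantile normalization and 2 with a pseudocount of 10. The comparison shares its young libraries with the first and its repopulated libraries with the second, so the 3 comparisons are not independent of each other.

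**Figure D2:**
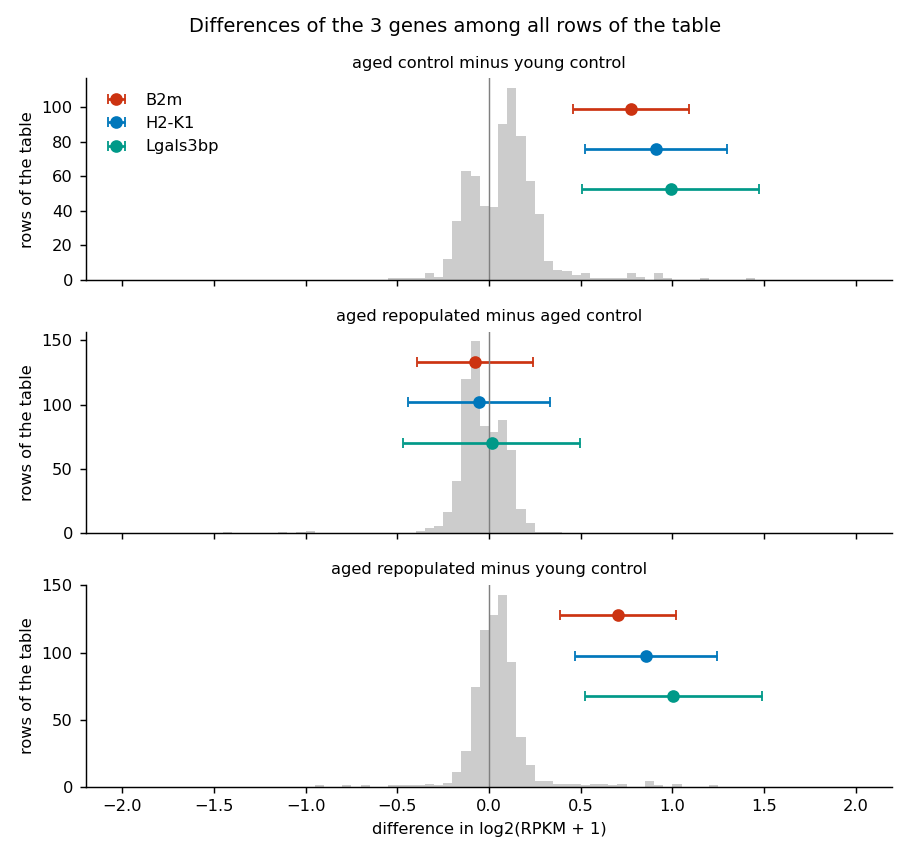
Difference in log2(RPKM + 1) on the x axis for the 3 comparisons, with the grey histogram counting the rows of the table per bin of difference (y axis) and the coloured points and bars giving *B2m*, *H2-K1* and *Lgals3bp* with their 95% confidence intervals, placed at arbitrary heights. The 3 genes lie in the right tail for aged control minus young control and for aged repopulated minus young control, and near 0 for aged repopulated minus aged control.

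The libraries of the aged groups were spread more widely than the young ones. In the aged-repopulated group the highest library exceeded the lowest by 1.44 times for *B2m*, 1.63 times for *H2-K1* and 1.85 times for *Lgals3bp*, compared with 1.14, 1.13 and 1.38 times in the young controls. The coefficient of variation of *Lgals3bp* was 16.1% in the young controls, 23.8% in the aged controls and 34.0% in aged-repopulated mice. For all 3 genes replicate 1 was the highest library of both aged groups. Without aged-repopulated replicate 1, the repopulated mean was 0.837 times the aged-control mean for *B2m*, 0.816 times for *H2-K1* and 0.829 times for *Lgals3bp*. The log2 differences were then −0.24, −0.26 and −0.23, and 0 of the 3 genes passed the adjusted p. Without aged-control replicate 1 they were instead 0.04, 0.09 and 0.18. The sign of the difference between the aged groups thus turned on which library was left out. The difference between aged and young controls stayed between 0.66 and 1.15 for every gene and every library left out. The table was selected on these same libraries, so that range is a description and no sign of stability.

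**Figure D3:**
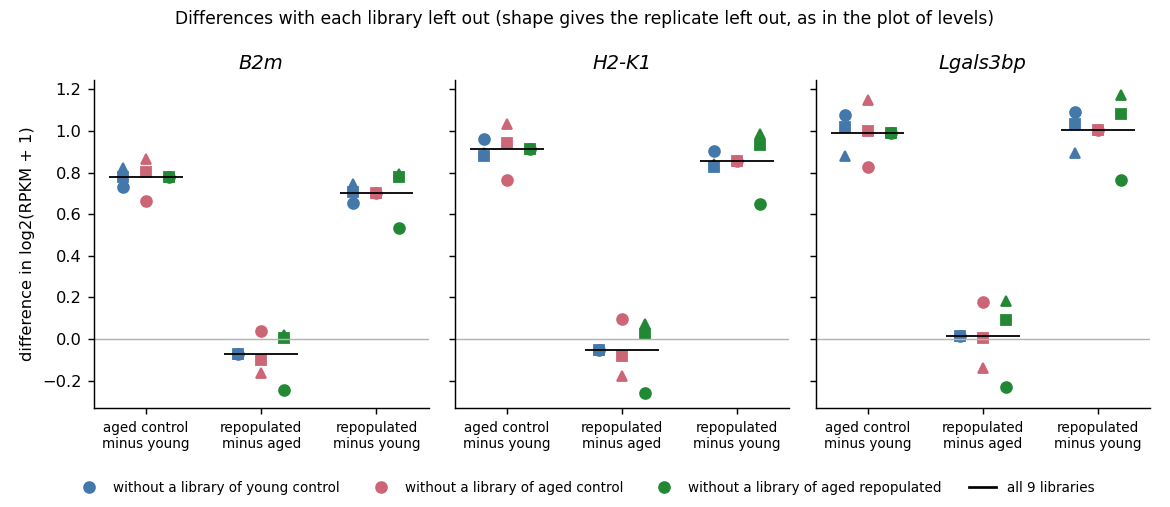
Difference in log2(RPKM + 1) on the y axis for the 3 comparisons after leaving out 1 library at a time, for *B2m*, *H2-K1* and *Lgals3bp*, where the colour gives the group and the symbol the replicate that was left out and the black lines give the value with all 9 libraries. The differences from young controls stay above 0.5, and those between the aged groups fall on both sides of 0.

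The 3 genes ordered the libraries in the same way. In both aged groups replicate 1 had the highest level of each gene, replicate 2 the middle and replicate 3 the lowest, an order noticed after the values were seen. The replicate numbers do not pair mice between groups. Of the 689 genes, 25 (3.63%) had this order in both groups, and 89 had replicate 1 highest in both. In the young controls the 3 genes did not share an order. *H2-D1* and *Ifi27* were the only other genes of the antigen presentation and interferon lists that had the same order.

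Microglial marker genes in the table, of which 8 of 26 listed are used here, were *C1qa*, *C1qb*, *C1qc*, *Ctss*, *Csf1r*, *Tyrobp*, *Laptm5* and *Lgmn*. Their summed RPKM was 163 to 168 in the young controls, 227 to 268 in the aged controls and 217 to 312 in aged-repopulated mice, and 6 of the 8 passed the adjusted p with age, all higher, where 46.3% of the table did so. Between the aged groups 0 of the 8 passed in limma, where 8.71% of the table did so. An unadjusted p under 0.05 was found for 0 of the 8 and for 271 of the 689 genes. Against young controls 6 of the 8 passed as higher in the aged-repopulated mice, where 4.21% of the table did so. Every repopulated library lay above every young one for 7 of the 8, as in 31.5% of the table. In whole tissue, more cells of a type and more RNA per cell cannot be told apart. None of the 8 had the order of libraries that the 3 genes shared, and none had replicate 1 highest in both aged groups, which for so few genes is close to the 3.63% and the 89 of 689 in the table. In the aged controls the microglial sum was 1.47, 1.61 and 1.37 times the young mean in replicates 1, 2 and 3, so its highest library was replicate 2. In the aged-repopulated group it was 1.87, 1.31 and 1.40 times, with replicate 1 the highest, as for the 3 genes. *Csf1r*, the receptor that PLX5622 inhibits, had 15.1 ± 0.576 RPKM in the young controls, 16.1 ± 0.864 RPKM in the aged controls and 16.9 ± 1.77 RPKM in aged-repopulated mice (SD, n = 3), and passed the adjusted p in none of the comparisons.

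**Figure D4:**
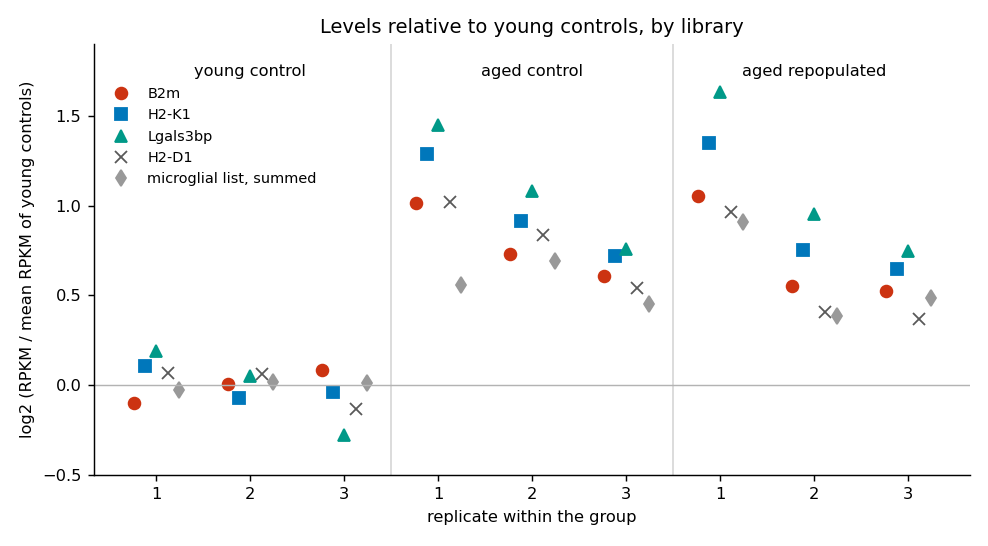
Level of *B2m*, *H2-K1*, *Lgals3bp* and *H2-D1* and of the summed microglial markers in each library, as log2 of the RPKM over the mean of the young controls (y axis), with the replicates of the 3 groups along the x axis. The 3 genes are highest in replicate 1 of both aged groups, while the microglial sum is highest in replicate 2 of the aged controls.

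Set against the microglial sum of its own library, *B2m* was 0.398 to 0.440 in the young controls, 0.429 to 0.574 in the aged controls and 0.429 to 0.468 in aged-repopulated mice. The ranges of all 3 groups overlapped. *H2-K1* over the microglial sum was 0.0581 to 0.0677, 0.0722 to 0.102 and 0.0691 to 0.0837, and *Lgals3bp* was 0.0288 to 0.0409, 0.0436 to 0.0652 and 0.0422 to 0.0582 in the same order. For these 2 genes both aged groups lay above the young one. The sum itself was 1.48-fold higher in aged than in young controls, but its genes differed. *Lgmn*, at 49.6 of the 166 RPKM in the young, was 1.03-fold higher and *Csf1r* 1.07-fold. The others were 1.30-fold (*Laptm5*) to 1.92-fold (*C1qa*) higher. These ratios therefore depend on the markers summed, and ratios to single markers were not taken. The part that the number or the state of microglia has in the levels of the 3 genes was not tested. Markers of other cells were few in the table. The summed RPKM of 4 of 14 endothelial genes was 65.5 to 66.6 in the young controls, 62.4 to 69.1 in the aged controls and 52.4 to 66.8 in aged-repopulated mice. This sum held genes that moved in opposite directions. With age *Ly6a* and *Ly6c1* rose by 0.59 and 0.37 on the log2 scale and *Itm2a* fell by 0.46. *Slco1a4*, an organic anion transporter of the blood-brain barrier, differed by −0.03 with age. Between the aged groups *Slco1a4*, *Ly6c1* and *Ly6a* differed by −0.38, −0.31 and −0.29, and *Itm2a* by 0.12. Of these only *Slco1a4* passed the adjusted p there, where 8.71% of the table did so. None of 18 lymphocyte and blood genes and none of 11 choroid plexus and meningeal genes was in the table, so their levels are not analysed here. Of the remaining lists 1 of 10 astrocyte, 1 of 12 oligodendrocyte and 2 of 11 neuronal genes were present. All 4 passed the adjusted p with age, in one direction or the other, as did 433 of the 689 genes. *Opalin*, of oligodendrocytes, had means of 17.5, 11.8 and 15.8 RPKM in young, aged and aged-repopulated mice. *Gjb6*, an astrocyte connexin, differed by 0.23 with age on the log2 scale, and the neuronal genes *Rbfox3* and *Gad1* by 0.16 and 0.17. *Rbfox3* also passed between the aged groups, with a difference of -0.17. These marker genes were named after their values were seen, and their part in the levels of the 3 genes was not tested.

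A ratio of 2 genes within 1 library does not depend on how libraries are scaled. *B2m* over *H2-K1* was 6.80 ± 0.802 in the young controls, 5.93 ± 0.328 in the aged controls and 5.87 ± 0.348 in aged-repopulated mice (SD, n = 3), and its ranges overlapped between all groups. *H2-K1* over *Lgals3bp* was 1.61 to 2.07, 1.56 to 1.70 and 1.44 to 1.64. In both aged groups *B2m* over *H2-K1* was lowest in replicate 1, where the levels of both genes were highest, at 5.60 and 5.51, and reached 6.25 and 6.21 in replicate 3. *B2m* over *Lgals3bp* was 8.80 to 10.7 in the aged controls and 7.93 to 10.2 in the aged-repopulated libraries, again lowest in replicate 1. The RPKM ratios thus differed among the aged libraries, with less *B2m* per *H2-K1* and per *Lgals3bp* where the levels were highest. A ratio does not remove an effect of transcript length, and the part of such an effect in these ratios was not tested. *H2-D1* over *H2-K1* was 1.36 to 1.60 in the young controls, 1.21 to 1.38 in the aged controls and 1.12 to 1.20 in aged-repopulated mice, so the repopulated libraries lay below all others. The highest repopulated value was only just below the lowest aged-control value, the 2 genes share reads to an extent that is not known, and the ratio was singled out after its values were seen.

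**Figure D5:**
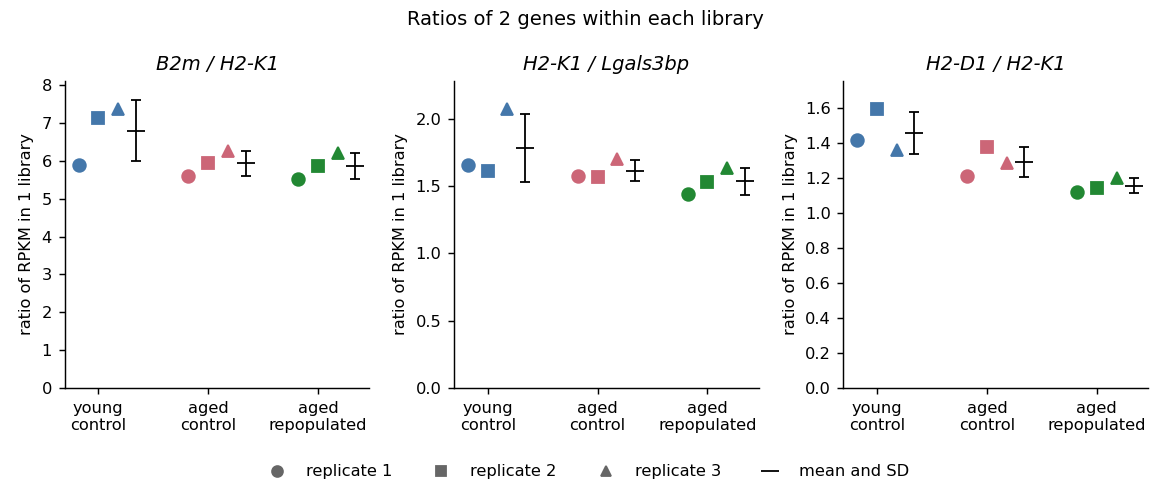
Ratio of the RPKM of 2 genes within each library (y axis, from 0) for *B2m* over *H2-K1*, *H2-K1* over *Lgals3bp* and *H2-D1* over *H2-K1*, with the 3 groups along the x axis, the symbol giving the replicate and the bars the mean and SD of 3 libraries. *B2m* over *H2-K1* lies between 5.51 and 6.25 in all aged libraries, and *H2-D1* over *H2-K1* lies lowest in the aged-repopulated group.

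Other genes of antigen presentation and of the interferon response were taken from lists of 34 MHC class I, 10 MHC class II, 84 interferon-induced, 25 interferon signalling and 18 galectin ligand genes. Together with the 3 genes, 11 of 163 listed genes were in the table and 0 of the MHC class II genes was. With age 7 of the other 8 passed the adjusted p, all higher, where 46.3% of the table did so, and the median log2 difference was 0.45. After repopulation, against aged controls, 0 of the 8 passed in limma, where 8.71% of the table did so. An unadjusted p under 0.05 was found for 2 of the 8 and for 271 of the 689 genes. The median was −0.11 for the 8 genes and −0.05 for the table. Against young controls 2 of the 8 passed, *Ifi27* and *Lamp2*, where 4.21% of the table did so.

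*H2-D1*, the second classical heavy chain, had 15.7, 15.6 and 13.6 RPKM in the young controls, 30.4, 26.7 and 21.7 RPKM in the aged controls and 29.3, 19.8 and 19.3 RPKM in aged-repopulated mice. Its log2 difference was 0.76 (SE 0.16) with age and −0.21 (95% confidence interval −0.56 to 0.14) between the aged groups. Both aged groups lay above the young one, and they overlapped each other. *Ifi27*, a gene strongly induced by interferon, had 18.1, 16.5 and 14.4 RPKM in the young controls, 35.4, 32.8 and 26.8 RPKM in the aged controls and 34.4, 28.5 and 28.2 RPKM in aged-repopulated mice. It rose by 0.91 (SE 0.11) with age on the log2 scale and was −0.05 between the aged groups. *Ifitm3*, which restricts the entry of viruses into cells, had means of 7.65, 13.5 and 12.2 RPKM in young controls, aged controls and aged-repopulated mice, with a log2 rise of 0.74 with age.

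*Ly6a* and *Ly6e* encode small membrane-anchored proteins of the Ly6 family. *Ly6a*, also a marker of endothelial cells, had means of 9.95, 15.5 and 12.6 RPKM in the same order. It rose by 0.59 with age, and its difference between the aged groups was −0.29 (95% confidence interval −0.53 to −0.06), which did not pass the adjusted p with all libraries but did so without aged-repopulated replicate 1. *Ly6e* rose by 0.25 with age. *Jak1*, the kinase that sits on the interferon receptors, had means of 35.8, 33.7 and 35.2 RPKM and a difference of −0.08 with age, which did not pass with the values as deposited but passed as lower under 6 of the alternatives, centring and quantile normalization among them.

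The galectin ligands in the table were *Lamp2*, a glycoprotein of the lysosomal membrane, and *Col6a1*, a collagen of the extracellular matrix. *Lamp2* rose by 0.21 with age, from 17.5 to 20.4 RPKM, and had 20.5 RPKM in the aged-repopulated mice. *Col6a1* rose by 0.32 with age, and its difference between the aged groups was −0.22, which passed the adjusted p only without aged-control replicate 1. Among the 8 genes the aged-repopulated libraries lay wholly below the aged controls for *Col6a1* and wholly above them for *Jak1*, and the groups overlapped for the other 6. In 37.4% of the table these groups did not overlap, in one direction or the other.

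The genes whose profiles over the 9 libraries were most like those of the 3 genes were found by the root mean square difference of z-scores of log2(RPKM + 1), where 0 means an identical profile. The libraries share their scaling, so the measure is a description with n = 9. For *B2m* the nearest were *H2-K1* (0.182), the complement gene *C1qa* (0.239) and the lysosomal protease *Ctss* (0.289). For *H2-K1* they were *Lgals3bp* (0.154), *B2m* (0.182) and *H2-D1* (0.238). For *Lgals3bp* they were *H2-K1* (0.154), the lysosomal mannosidase *Man2b1* (0.198) and *Ifi27* (0.239). The median difference over the whole table was 1.03 to 1.08 for the 3 genes. *C1qa* had means of 18.5, 35.6 and 35.7 RPKM, *Ctss* 28.0, 49.8 and 55.0 RPKM, and *Man2b1* 8.94, 10.3 and 10.6 RPKM in young controls, aged controls and aged-repopulated mice. The change of *Man2b1* was thus much smaller than that of *Lgals3bp*, since z-scores compare the shape of a profile and not its size.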

How the data were processed

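The RNA-seq libraries used were those of 9 mice, 3 each in the young control, aged control and aged-repopulated groups, and all other libraries of the study are not analysed here. The authors called bases with Casava (CASAVA 1.8.2 in the submitters' processing notes), used ELAND for alignment to the mm10 genome and derived RPKM values. They kept genes above a minimum RPKM and fitted a linear model with age and microglial state. The deposited table lists RPKM for the 689 genes that model called, without counts, and 0 of its library columns were left unmapped. It also holds the authors' F and t scores and p-values, which were not used. Steps that whole reads would leave were searched in 81 genes, and the best mean cosine was 0.294 to 0.341 (1 for perfect steps), so depth is unknown.

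From the deposited RPKM, log2(RPKM + 1) was fitted with limma 3.58.1 in R 4.3.3, all 9 libraries in 1 fit, with Benjamini-Hochberg adjustment over the 689 genes and a threshold of 0.05, after the code had been tested on simulated data. A change on this scale understates that of low genes. Where groups are said not to overlap, all 3 libraries of one lie above all 3 of the other. Python 3.11.15, pandas 2.3.3 and matplotlib 3.10.9 were used for tables and plots. Positions came from GENCODE M21, in which 686 symbols matched, 19 of them through a synonym. The 3 genes, the gene lists and the tests were chosen with earlier results of these data known. The text names the 3 genes, the listed genes in the table, the microglial markers and the 3 nearest profiles of each gene, and 1 microglial marker is not reported here. The labels name separate mice, with no number shared between groups. Alternatives were other pseudocounts (0.1 and 10), centring, quantile normalization, a loess correction for transcript length, a mean of at least 20 RPKM, only the groups compared, no variance moderation, a threshold of 0.025, and leaving out each library.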

Additional observations from a re-analysis of the deposited data

How the results depend on the processing

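The rise of *B2m*, *H2-K1* and *Lgals3bp* with age kept its direction in all 15 alternatives of each gene, and 3 of 3 passed the adjusted p in each of the 17 alternatives that tested all 3, which the selection of the table on these libraries makes a description and no sign of stability. With a pseudocount of 10 the log2 difference with age was 0.58 for *H2-K1* and 0.51 for *Lgals3bp*, and that of repopulated against young was 0.54 and 0.53, a larger pseudocount giving smaller values by construction. With the loess correction for transcript length *B2m* differed by 0.50 with age. Centring each library moved the median of all genes with age from 0.10 to −0.01, and *Jak1* passed as lower then and under 5 further alternatives (a pseudocount of 10, quantile normalization, a mean of at least 20 RPKM, no variance moderation, and without aged-control replicate 3). Between the aged groups 0 of the 3 genes passed in all 17 alternatives. Against young controls the number of the 3 that passed was 1 with quantile normalization, 0 without variance moderation, and 0 to 3 with each library left out. Of the other 8 listed genes, 4 passed with age under the length correction and 4 at a mean of at least 20 RPKM, where only 4 were tested. Against young controls 1 passed with a pseudocount of 10, centring, quantile normalization, a mean of at least 20 RPKM or a threshold of 0.025, 0 passed without variance moderation, and 1 to 2 with each library left out. Between the aged groups 0 to 1 passed with each library left out. Over the table, 433 genes passed with age, with 162 under the length correction, 251 at the higher mean, 277 after quantile normalization, 293 after centring, and 269 to 438 with each library left out. Between the aged groups 60 passed, with 133 after centring, 13 under the length correction, 31 at the higher mean, 5 with only the groups compared, 5 without variance moderation, 10 at the stricter threshold and 2 to 141 with each library left out. Against young controls 34 passed, with 61 after centring, 72 under the length correction, 22 at the higher mean, 9 without variance moderation and 11 to 59 with each library left out. Where no cause is given, the cause was not tested. No paired analysis was possible because the labels name separate mice and give no pairing between groups. Having 3 libraries per group and an unknown depth limits the precision.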
